A study of Mus musculus with 6 samples.

Results

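The carboxylesterase genes of mouse liver were followed in RNA-seq of mice in which hepatocyte Rnf10, which encodes a RING finger E3 ubiquitin ligase, was silenced. The 10 genes were Ces1b, Ces1c, Ces1d, Ces1e, Ces1f, Ces1g, Ces2a, Ces2e, Ces3a and Ces3b, taken by symbol from 55487 genes in the count table, which held 20 genes whose symbol starts with Ces and a digit. All mice were wild type, and the study's methods give male C57BL/6J mice. They ate normal chow and were injected subcutaneously, 3 with GalNAc-siNC, a control siRNA, and 3 with GalNAc-siRnf10, which the paper calls GalNAc-siRnf10-2. Livers were taken at 17 weeks of age, with 1 library per mouse and a shared batch label. N-acetylgalactosamine binds the asialoglycoprotein receptor of hepatocytes, whereas the libraries were made from whole liver tissue.

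Carboxylesterases are serine hydrolases that cut ester, thioester and amide bonds. In the liver they lie mostly in the lumen of the endoplasmic reticulum of hepatocytes, where they clear ester drugs and toxicants and also act on triacylglycerols and cholesteryl esters. Most are kept there by a carboxyl-terminal HXEL signal that KDEL receptors recognise, and those without it can be secreted. Rodents carry many tandem copies of these genes where humans have few, so several mouse genes correspond to a single human enzyme.

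All 10 genes lay on chromosome 8 of GRCm38. The 6 Ces1 genes formed a cluster on the minus strand from 93056728 to 93337308, spanning 280.6 kb, and the Ces2 and Ces3 genes a second cluster on the plus strand from 104734003 to 105093929, spanning 359.9 kb. The clusters were 11.4 Mb apart. Their coding sequences held 1662 to 1713 bases over 12 to 14 exons of the longest annotated coding transcript, and each encoded the GXSXG motif around the active serine. Within a subfamily the coding sequences were between 74.5% and 95.3% identical (median 78.4% over 17 pairs), and between subfamilies from 62.8% to 65.3% (28 pairs).

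The ends of the coding sequences are shown because they separate enzymes with the retention signal from those without it. The last 30 coding bases before the stop codon are given 5′ to 3′ on the coding strand (GENCODE M21, GRCm38), with the 12 bases that encode the last 4 residues in capitals.
Ces1b, chr8:93056890-93056919, minus: acagaccctactgagcacAGAGAACACAAA
Ces1c, chr8:93099168-93099197, minus: acagaccctactgaacacACAGAACACAAA
Ces1d, chr8:93166258-93166287, minus: aggccatcccacagggaaCATGTTGAGCTC
Ces1e, chr8:93201407-93201436, minus: aagcaactgccgacagaaCACACTGAGCTG
Ces1f, chr8:93256432-93256461, minus: aaacaaccccagccatacCACAATGAGCTG
Ces1g, chr8:93302908-93302937, minus: aggtcatcccatagggaaCATGTTGAACTG
Ces2a, chr8:104741384-104741413, plus: aagggttctcaggacaagCATGCAGAGCTG
Ces2e, chr8:104933682-104933711, plus: aaggggtctcaggagaggCACAAAGAGTTG
Ces3a, chr8:105058071-105058100, plus: cagagaagcaggaaagttCCAGAGGAGCTC
Ces3b, chr8:105093230-105093259, plus: cagagaagcaggaaagttCCAGAGGAGCTC
An HXEL end was encoded by 6 of the genes, Ces1d, Ces1e, Ces1f, Ces1g, Ces2a and Ces2e. Ces1b and Ces1c ended alike and without it, and Ces3a and Ces3b shared the same last 30 bases, whose end is also not HXEL.

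Total counts were between 28430868 and 33058645 per GalNAc-siNC mouse and between 26854377 and 31621131 per GalNAc-siRnf10 mouse. The 10 genes took 0.690% to 0.709% of the counts in the control mice and 0.778% to 0.791% in the treated mice. Levels below are CPM, counts scaled to a library of common size after TMM normalization, so they are relative to all other RNA in the library. Rnf10 itself stood at 130.4, 152.9 and 136.2 CPM in the control mice and at 58.6, 61.4 and 60.5 CPM in the treated mice (log2 fold change -1.22, SE 0.0715, adjusted p = 3.29e-09). Albumin took 3.72% to 4.36% of the counts in control mice and 5.93% to 6.08% in treated mice. Its part in the carboxylesterase values was not tested.

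Silencing Rnf10 was accompanied by higher transcript levels for 8 of the 10 carboxylesterase genes, by 13.6% to 105% of the control mean (n = 3 mice per group). Ces1b, Ces1d, Ces1g, Ces2a, Ces2e, Ces1f, Ces3a and Ces1c rose, in that order of size, and Ces1e and Ces3b did not pass the test. A gene was called at an adjusted p under 0.05 in edgeR's quasi-likelihood test, adjusted over all 14046 genes tested. Among these, 1965 (14.0%) were called, 943 (6.71%) higher and 1022 (7.28%) lower. The median log2 fold change of the 10 genes, all of which passed the filter on low counts, was 0.30, against 0.00 over all genes tested. The mice of the groups did not overlap for 9 of the 10 genes, as for 32.8% of all genes tested. The exact two-sided permutation test gave p = 0.1 for these 9 genes, the smallest value that 3 mice against 3 allow, and p = 0.3 for Ces1e. In bulk liver, a lower or higher number of cells of a type and a lower or higher amount of RNA per cell cannot be told apart.

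**Figure D1:**
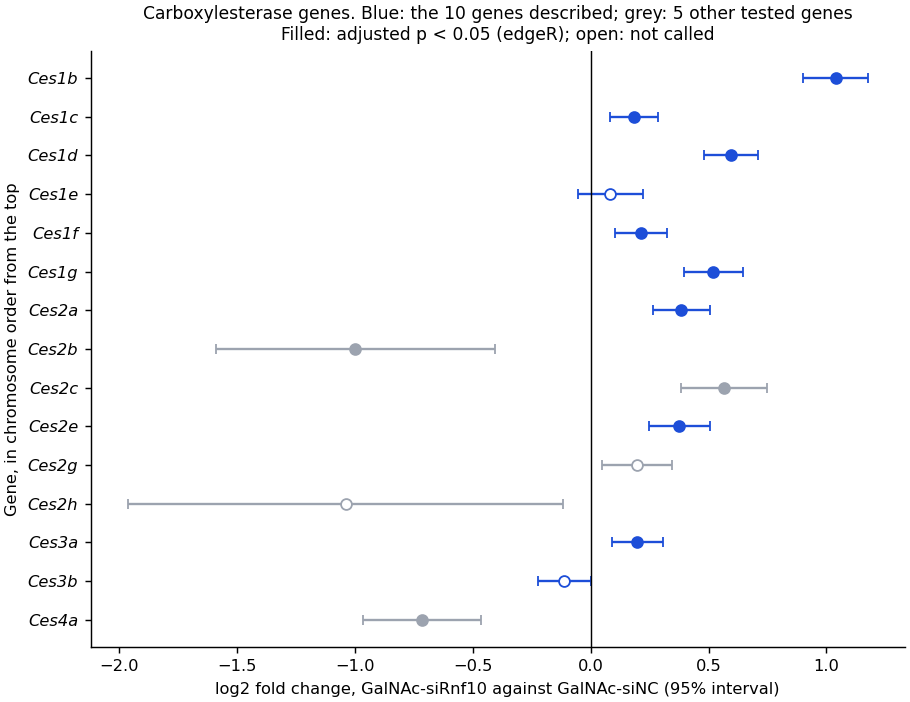
The log2 fold change (GalNAc-siRnf10 against GalNAc-siNC, horizontal axis) is drawn with its 95% interval for the 10 carboxylesterase genes in blue and for 5 other tested genes of the family in grey, with filled points for genes at an adjusted p under 0.05. Ces1b lies farthest to the right at 1.04, 8 blue points are filled to the right of 0, and the open blue points are Ces1e at 0.08 and Ces3b at -0.11.

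**Figure D2:**
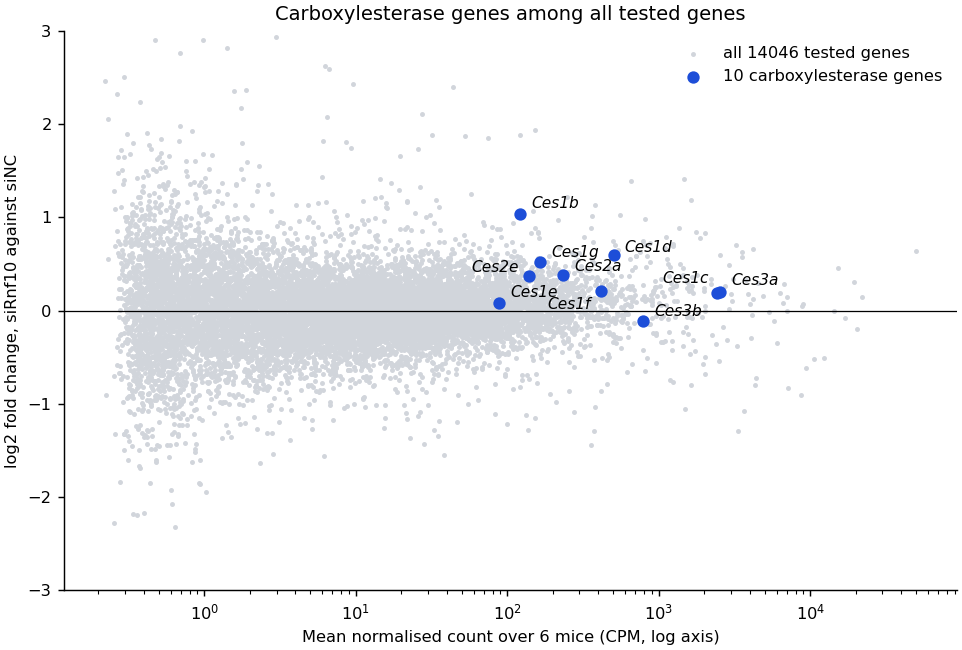
The log2 fold change is plotted against the mean CPM over 6 mice (log axis) for the 14046 tested genes in grey and the 10 carboxylesterase genes in blue, with 9 genes beyond the vertical limits not drawn. Ces1c and Ces3a lie among the most abundant transcripts at small positive values, and Ces1b lies above the bulk of genes of like abundance.

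The control livers showed a steep order of levels when counts were divided by the length of the deposited gene model (CPM per kb), which allows genes to be compared. Ces1c, the main esterase of mouse plasma, led with 971 ± 18.3 CPM per kb (SD, n = 3), and ranked 57 among all genes tested. Ces3a followed closely with 905 ± 9.57 CPM per kb. Ces3b, the neighbour of Ces3a, came next at 319 ± 13.3 CPM per kb, followed by Ces1d at 170 ± 7.44 and Ces1f at 118 ± 3.85 CPM per kb. Ces1c and Ces3a together thus held most of the family's transcripts.

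The other 5 genes were lower in the control livers. Ces2a was at 86.1 ± 3.72 CPM per kb, Ces1g at 56.7 ± 2.27, Ces2e at 44.8 ± 0.833, Ces1b at 40.7 ± 1.47 and Ces1e at 39.2 ± 2.11 CPM per kb. Every control mouse had more of each gene than of the next gene in this order, except that Ces1b and Ces1e overlapped. With the longest annotated transcript as the length instead, 4 of the 10 ranks differed, as Ces1f (201.3 CPM per kb) passed Ces1d (200.8 CPM per kb) and Ces1e passed Ces1b. Between mice, the control levels of a gene had a coefficient of variation of 1.06% to 5.39%.

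In the treated livers the order of the upper 6 genes was as in the controls, and Ces1b moved from the ninth to the seventh place. Its level was 83.7 ± 3.71 CPM per kb, beside 81.3 ± 1.19 CPM per kb for Ces1g, and these neighbours overlapped between mice. Among all genes tested, the rank of Ces1b went from 933 to 524 and that of Ces1d from 253 to 195. Ces1e, the lowest of the 10 in both groups, went from rank 960 to 949.

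**Figure D3:**
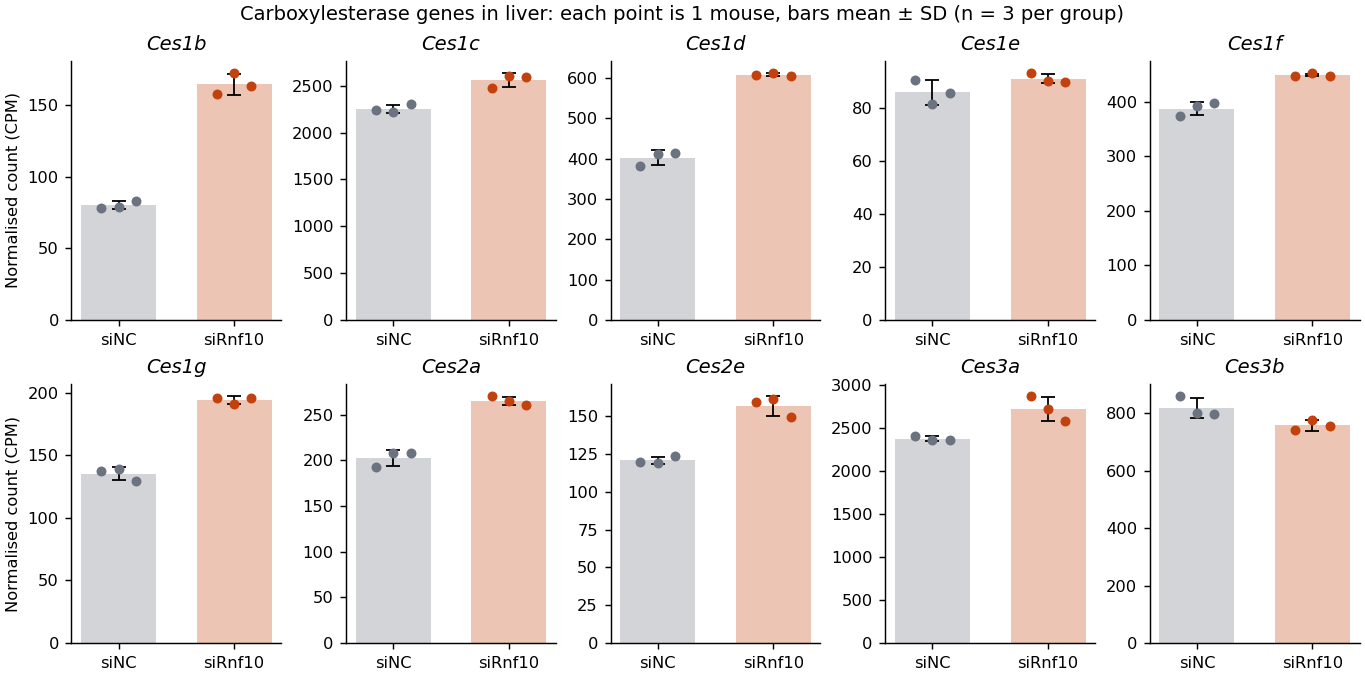
Each panel shows the normalised count (CPM, vertical axis from 0) of a carboxylesterase gene, with points for mice and bars for the mean ± SD of 3 GalNAc-siNC and 3 GalNAc-siRnf10 mice. The treated mice lie above all control mice in 8 panels, below them for Ces3b, and among them for Ces1e.

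Ces1b (ENSMUSG00000078964, 93056728 to 93080017), which lacks the retention signal, showed the largest rise of the 10 genes. Its level was 78.0, 78.7 and 83.3 CPM in the control mice and 157.6, 172.1 and 163.4 CPM in the treated mice. The means of 80.0 ± 2.88 and 164 ± 7.29 CPM (SD, n = 3) were 2.05-fold apart, with a log2 fold change of 1.04 (SE 0.0643, 95% interval 0.90 to 1.18, adjusted p = 6.33e-09). By the size of its rise it ranked 190 among all genes tested. Every treated mouse was well above every control mouse, and the gap between the groups was larger than the range within either.

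Ces1c (ENSMUSG00000057400, 93099015 to 93131283), the neighbour of Ces1b and its closest relative, rose far less. It stood at 2242, 2221 and 2303 CPM in the control mice and at 2479, 2610 and 2596 CPM in the treated mice, 13.6% higher on average. The log2 fold change was 0.18 (SE 0.0482, 95% interval 0.08 to 0.29, adjusted p = 0.0163). The groups did not overlap, but the call was lost when any of the treated mice was left out, with an adjusted p of 0.0637 without mouse 1, 0.139 without mouse 2 and 0.129 without mouse 3. It was also lost with counts scaled to library totals alone (log2 fold change 0.14, adjusted p = 0.0836) and with offsets for GC content and length (0.11, adjusted p = 0.0591).

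Ces1d (ENSMUSG00000056973, 93166068 to 93197838), also known as triacylglycerol hydrolase, mobilises stored triacylglycerol for the assembly of very low density lipoprotein (VLDL). It was at 382.0, 411.4 and 413.6 CPM in the control mice and at 607.9, 611.0 and 604.0 CPM in the treated mice. The mean rose from 402 ± 17.6 to 608 ± 3.51 CPM (SD, n = 3), 51.0% higher, with a log2 fold change of 0.59 (SE 0.0537, 95% interval 0.48 to 0.71, adjusted p = 6.12e-07). The treated mice were nearly alike and all stood far above the controls.

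Ces1e (ENSMUSG00000061959, 93201218 to 93229619) encodes egasyn, which holds β-glucuronidase in the endoplasmic reticulum. Its level was 90.5, 81.3 and 85.7 CPM in the control mice and 92.9, 90.1 and 89.8 CPM in the treated mice. Control mouse 1 lay among the treated mice, and the difference did not pass the test (log2 fold change 0.08, SE 0.0660, 95% interval -0.06 to 0.22, adjusted p = 0.459). With offsets for GC content and length the sign turned (-0.0063, adjusted p = 0.960). Gusb, which encodes the β-glucuronidase that egasyn binds, was at 29.3 ± 3.05 and 31.5 ± 0.972 CPM and was not called either (adjusted p = 0.485).

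Ces1f (ENSMUSG00000031725, 93256236 to 93279747), a second triacylglycerol hydrolase of hepatocytes, rose by 15.9%. The control mice had 373.4, 392.6 and 397.3 CPM and the treated mice 448.3, 452.3 and 448.0 CPM. The log2 fold change was 0.21 (SE 0.0529, 95% interval 0.10 to 0.33, adjusted p = 0.0114). All treated mice were above all controls, yet the call was lost without treated mouse 1, 2 or 3, at an adjusted p of 0.0802, 0.0850 and 0.0767.

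Ces1g (ENSMUSG00000057074, 93302369 to 93337308), also called esterase-x, takes part in hepatic lipid handling and lipoprotein secretion. It stood at 137.6, 139.4 and 129.3 CPM in the control mice and at 195.9, 190.9 and 195.7 CPM in the treated mice. The mean was 43.3% higher with GalNAc-siRnf10, with a log2 fold change of 0.52 (SE 0.0594, 95% interval 0.39 to 0.65, adjusted p = 1.01e-05). The groups were clearly apart, and the call held in all 6 fits without a mouse.

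Both Ces2 genes rose. Ces2a (ENSMUSG00000055730, 104734003 to 104741634), which hydrolyses acylglycerols, was at 192.9, 207.9 and 208.2 CPM in the control mice and at 269.8, 265.0 and 260.4 CPM in the treated mice. It was 30.6% higher (SE 0.0574 on a log2 fold change of 0.38, 95% interval 0.26 to 0.51, adjusted p = 0.000176). Ces2e (ENSMUSG00000031886, 104926260 to 104934672), which was described as a pyrethroid hydrolase, was at 119.6, 119.3 and 123.4 CPM in the control mice and at 159.6, 161.1 and 149.4 CPM in the treated mice. It was 29.7% higher (log2 fold change 0.38, SE 0.0610, 95% interval 0.25 to 0.51, adjusted p = 0.000397). For neither gene did the groups overlap, and both calls held in every fit without a mouse and under all 11 other settings.

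The Ces3 genes, the most alike of the family, had values in opposite directions. Ces3a (ENSMUSG00000069922, 105048601 to 105058413) was at 2407, 2367 and 2361 CPM in the control mice and at 2868, 2727 and 2588 CPM in the treated mice. It was 14.7% higher (log2 fold change 0.20, SE 0.0508, 95% interval 0.09 to 0.31, adjusted p = 0.0142). The treated mice were spread more widely than the controls, and the call was lost without treated mouse 1 (adjusted p = 0.163) or 2 (adjusted p = 0.0971), and with counts scaled to library totals alone (log2 fold change 0.15, adjusted p = 0.0652).

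Ces3b (ENSMUSG00000062181, 105083753 to 105093929) was the only gene of the 10 with lower values in the treated mice. The control mice had 858.5, 802.1 and 797.0 CPM and the treated mice 741.7, 777.6 and 754.8 CPM, a mean difference of -7.47%. Every treated mouse was below every control mouse, but the difference did not pass the test over all genes (log2 fold change -0.11, SE 0.0527, 95% interval -0.22 to -0.00053, adjusted p = 0.185). With offsets for GC content and length it did, at a log2 fold change of -0.17 and an adjusted p of 0.0119.

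The genes are close copies, so reads could be assigned to the wrong one. Of the 150-base windows of their transcripts, 2.37% of Ces3a and 2.00% of Ces3b were found in the other, and 4.03% of Ces2a in the predicted gene Gm7208, which had at most 2 counts in a mouse. None of the 150-base windows of the other 7 genes occurred in another gene. At 50 bases the shared part was 30.9% for Ces3a, 26.1% for Ces3b, 22.2% for Ces2a, 17.0% for Ces1c and 11.6% for Ces1b, and 1.28% to 3.36% for the rest. The counting setting for reads that match more than 1 gene is not given in the sources used here. An opposite-strand gene, Gm45724, overlapped 1 exonic base of Ces3a and had at most 218 counts, against at least 68084 for Ces3a.

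Ratios within a mouse do not depend on library scaling, and 4 pairs of paralogs were compared in this way. Ces3a and Ces3b, 95.3% identical in coding sequence, stood at ratios of 2.80, 2.95 and 2.96 in the control mice and 3.87, 3.51 and 3.43 in the treated mice, with means of 2.91 ± 0.0883 and 3.60 ± 0.234 (SD, n = 3). Ces1b and Ces1c, 91.1% identical, went from a ratio of 0.0355 ± 0.000696 to 0.0642 ± 0.00157. For both pairs all treated mice were above all control mice (exact two-sided permutation test, p = 0.1, adjusted over the 4 pairs 0.2). The abundant copy is the upper term of the first ratio and the lower term of the second.

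The ratio of Ces2a to Ces2e (83.3% identical) was 1.68 ± 0.0651 in the controls and 1.69 ± 0.0491 in the treated mice (exact permutation p = 0.7, adjusted 0.7). That of Ces1d to Ces1g (81.5% identical) was 2.98 ± 0.213 and 3.13 ± 0.0620 (exact permutation p = 0.3, adjusted 0.4). In these pairs the groups overlapped, while each gene of the pairs was called higher on its own.

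**Figure D4:**
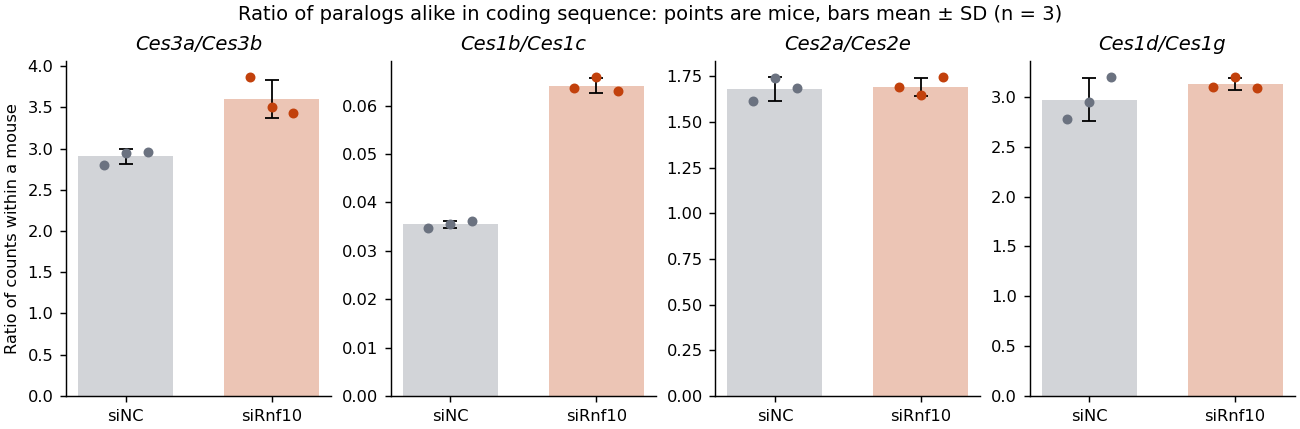
The ratio of the counts of paired paralogs within each mouse (vertical axes from 0) is shown with points for mice and bars for the mean ± SD (n = 3 per group). The Ces3a/Ces3b and Ces1b/Ces1c ratios of treated mice lie above those of all control mice, and the Ces2a/Ces2e and Ces1d/Ces1g ratios overlap.

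The summed level of the 10 genes was 6881, 6821 and 6901 CPM in the control mice and 8020, 8057 and 7850 CPM in the treated mice. The means of 6868 ± 41.8 and 7975 ± 111 CPM (SD, n = 3) differed by 16.1%. Of the difference of 1108 CPM, Ces1c and Ces3a together gave 656 CPM and the other 8 genes 452 CPM. Relative to the control mean, Ces1c and Ces3a together were 14.15% higher and the other 8 genes 20.23%. The sum of the Ces1 genes was 21.6% higher (3347 and 4068 CPM), that of the Ces2 genes 30.3% (324 and 422 CPM) and that of the Ces3 genes 9.01% (3197 and 3486 CPM).

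Ces1c and Ces3a led the make-up of the family in both groups. By transcripts per length, Ces1c held 35.3% ± 0.477 of the 10 genes in the control mice and 34.4% ± 1.14 in the treated mice, and Ces3a 32.9% ± 0.387 and 32.4% ± 1.40 (SD, n = 3). Ces3b made up 11.6% ± 0.476 and 9.22% ± 0.204 of the family, and Ces1d 6.17% ± 0.280 and 8.0% ± 0.0598. Ces1b made up 1.48% ± 0.0477 and 2.61% ± 0.107. These shares sum to the whole, so a higher share of some genes lowers that of others.

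**Figure D5:**
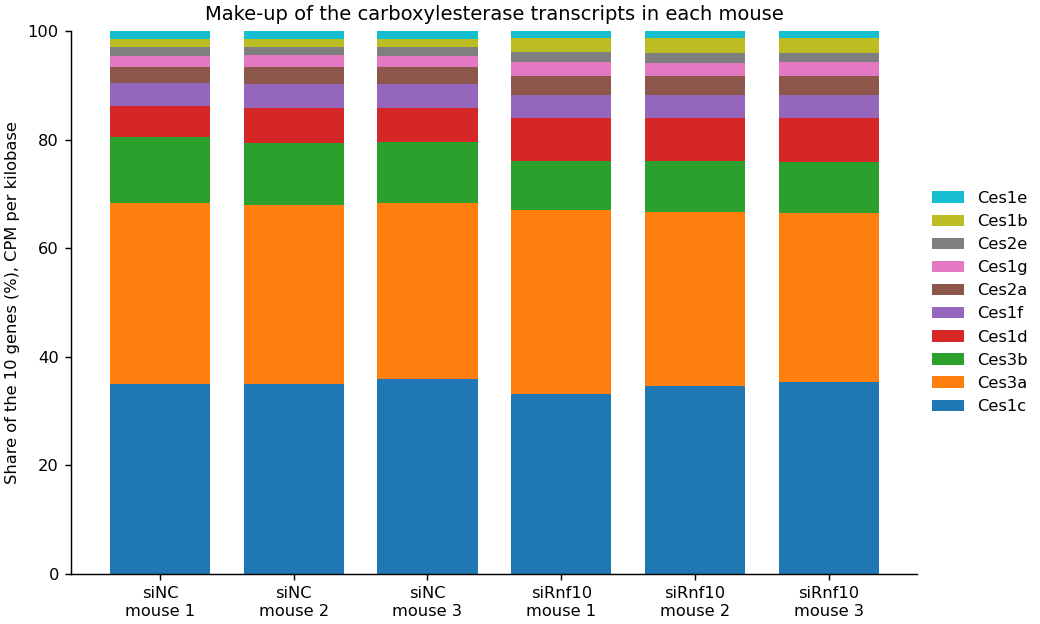
Stacked bars give the share of each carboxylesterase gene in the summed CPM per kilobase of the 10 genes (percent, vertical axis from 0 to 100) for each of the 6 mice. Ces1c and Ces3a fill about the same part of all bars, while the Ces3b band is narrower and the Ces1d and Ces1b bands are wider in the treated mice.

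Upstream sequence was compared because Ces1b and Ces1c differed in fold change although their coding sequences are alike. RefSeq promoters (GRCm38.p6) matched 7 of the 10 genes, all but Ces1d, Ces1f and Ces3a. The promoters of Ces1b and Ces1c were 94.2% identical over 223 aligned bases, and the next most similar pair, Ces2a and Ces2e, 69.9% over 216 bases. In the 250 bases before the start, the word TTATGTAA, the recognition sequence of PAR bZIP factors such as DBP, TEF and HLF, was found in Ces1b, Ces1c, Ces1e and Ces1g, and in 0.82% of 32851 promoters, counting both strands. It was chosen after the sequences had been seen. The word is in capitals in these 30-base stretches.
Ces1b, chr8:93080006-93080035, minus: gagggggagctTTATGTAAttatgctaatt
Ces1c, chr8:93131359-93131388, minus: gagggggagctTTATGTAAttatgctaatt
Ces1e, chr8:93229682-93229711, minus: ctgagagatatTTATGTAAgaagttgtttg
Ces1g, chr8:93337423-93337452, minus: ggggagaaacaTTATGTAAgatgttccttg
The stretch was the same, base for base, in Ces1b and Ces1c, and the word in it began 84 and 94 bases before their starts at 93079940 and 93131283. A second RefSeq start of Ces1b, at 93080017, lies within the stretch. The genes with the word included Ces1b, with the largest rise, and Ces1e, which was not called.

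Other words were searched in the same 250 bases on both strands. TATAAA was found in Ces1g and Ces3b (12.4% of all promoters), TTGCNNAA, a C/EBP-like word, in Ces1b, Ces1c, Ces2a and Ces2e (9.56%), and AGGTCA, a nuclear receptor half-site, in Ces2a (14.0%). CACGTG, the E-box of clock and USF factors, was in none of the 7 (6.02% of all promoters). The PAR bZIP genes Dbp, Tef and Hlf and the related bZIP gene Nfil3 were tested, with none called by edgeR, DESeq2 or limma voom and 0 at an unadjusted p under 0.05. Dbp stood at 87.5 ± 23.0 CPM in the controls and 104 ± 2.75 CPM in the treated mice (SD, n = 3).

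Of the 10 other carboxylesterase genes in the table, 5 passed the filter on low counts, and the directions were mixed. Ces2c rose from 33.0 ± 3.06 to 48.8 ± 3.61 CPM (SD, n = 3, log2 fold change 0.57, adjusted p = 0.000217). Ces4a fell from 13.8 ± 1.05 to 8.40 ± 0.878 CPM (log2 fold change -0.72, adjusted p = 0.000451). Ces2b fell from 1.95 ± 0.222 to 0.979 ± 0.276 CPM (log2 fold change -1.0, adjusted p = 0.0234) on 21 to 64 counts per mouse. The Ces2b call was lost without control mouse 2 (adjusted p = 0.0640) or 3 (0.0702) and without treated mouse 2 (0.121) or 3 (0.0641). Ces2g (adjusted p = 0.0761) and Ces2h (adjusted p = 0.132) were not called, Ces1a, Ces1h and Ces2d-ps had at most 11 counts in a mouse, and Ces2f and Ces5a had 0. For Ces2f and Ces5a, 0 counts allow at most 1.12e-05% of a library, the share that 3 counts make in the shallowest library, by counting error alone.

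Genes of other esterases, lipases and related hydrolases were called in both directions. Of 18 listed, 16 were tested, 7 were higher and 2 lower (median log2 fold change 0.22). Afmid, the kynurenine formamidase (0.55, adjusted p = 0.000340), Ephx1, the microsomal epoxide hydrolase, which opens epoxides and not esters (0.55, adjusted p = 1.91e-06), and Pon1, the paraoxonase of high density lipoprotein (0.37, adjusted p = 0.000157), rose. Lipe, the hormone-sensitive lipase, fell from 17.4 ± 2.37 to 12.6 ± 1.08 CPM (log2 fold change -0.47, adjusted p = 0.0111), a call that was lost without control mouse 2 (adjusted p = 0.0542) or treated mouse 3 (adjusted p = 0.0838). Mgll, the monoacylglycerol lipase, fell from 209 ± 6.90 to 181 ± 5.2 CPM (log2 fold change -0.21, adjusted p = 0.0247), and its call was lost without control mouse 3 (adjusted p = 0.0529) or any treated mouse (0.0875 to 0.158). With offsets for GC content and length the Mgll change was -0.09 (adjusted p = 0.176). Of the 9 genes of VLDL assembly, only Dgat2, which makes triacylglycerol, was called, higher by 0.18 on the log2 scale (adjusted p = 0.0448), and not without control mouse 3 or any of the treated mice (adjusted p 0.121 to 0.197), nor by DESeq2 (0.0887).

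Carboxylesterases are known targets of the xenobiotic receptors PXR and CAR, and other targets of these receptors were higher in the same mice. Of 12 listed, 11 were higher (median log2 fold change 0.52), among them Ephx1, which is thus counted in both lists. Cyp3a11, the main PXR-induced cytochrome P450, went from 996 ± 77.0 to 2271 ± 69.2 CPM (log2 fold change 1.19, adjusted p = 4.15e-10). Cyp2b10, the classical CAR target, went from 0.514 ± 0.291 to 2.62 ± 0.275 CPM (log2 fold change 2.36, adjusted p = 9.01e-05). Its control level was low, so the size of its fold change rests on few counts. The organic anion carriers Slco1a4 and Abcc3 rose by 1.16 and 0.84 on the log2 scale. Among 12 liver transcription factors, 3 were higher (median log2 fold change -0.00063). They were Nr0b2 (0.81, adjusted p = 4.19e-05), Nr1i3, which encodes CAR (0.63, adjusted p = 0.000175), and Nr1i2, which encodes PXR (0.37, adjusted p = 0.00660). Whether these genes have a part in the carboxylesterase values was not tested.

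Some genes that vary with the time of day differed between the groups as well. Of 11 core clock genes, 10 were tested, 5 were higher and 1 lower (median log2 fold change 0.30). Per1 rose from 11.8 ± 0.634 to 39.5 ± 2.12 CPM (log2 fold change 1.74, adjusted p = 6.64e-10), Ciart by 1.29, Cry1 by 0.75, Per2 by 0.42 and Per3 by 0.40, and Nr1d1 fell by 0.68 on that scale. Arntl (-0.43, adjusted p = 0.466), Clock (-0.02, adjusted p = 0.923), Cry2 (-0.04, adjusted p = 0.808) and Nr1d2 (0.19, adjusted p = 0.101) were not called. Neither were the PAR bZIP genes given above. The part of clock genes in the carboxylesterase values was not tested, and the hour of tissue collection is not given in the sources used here.

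Zonation markers were read in the same libraries, since enzyme levels differ along the liver lobule. Of 8 periportal genes, 5 were higher (median log2 fold change 0.47, with Ass1 at 0.84, Sds at 0.64, Cps1 at 0.58, Pck1 at 0.48 and Arg1 at 0.46). Hal (0.02, adjusted p = 0.81), Cyp2f2 (0.15, adjusted p = 0.072) and Hsd17b13 (0.12, adjusted p = 0.15) were not called. Of 8 pericentral genes, 4 were higher and 1 lower (median 0.25, with Oat at 0.47, Slc1a2 at 0.33, Cyp2e1 at 0.29 and Cyp1a2 at 0.25). Glul (0.06, adjusted p = 0.51), Lgr5 (-0.07, adjusted p = 0.84) and Rhbg (0.24, adjusted p = 0.56) were not called. The lower gene was Axin2 (-0.44, adjusted p = 0.0447), whose call was lost without control mouse 1 or 2 or any treated mouse (adjusted p 0.0823 to 0.160), by DESeq2 (0.0598) and by limma voom (0.0775). The part of zonation in the carboxylesterase values was not tested.

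Hepatocyte markers summed to 50030 to 52990 CPM in the control mice and 76010 to 78700 CPM in the treated mice, with none at 0. Alb alone made up most of both sums (39070 ± 2887 and 60860 ± 1190 CPM). Of these 8 genes, 5 were higher, Tat (log2 fold change 1.41), Ttr (0.66), Alb (0.64), Serpina1c (0.44) and Cyp3a25 (0.19). Asgr1 (0.11, adjusted p = 0.496), Apoa1 (0.08, adjusted p = 0.641) and Hnf4a (0.08, adjusted p = 0.352) were not called. The Ttr call was lost without control mouse 2 (adjusted p = 0.114), that of Serpina1c without control mouse 2 (0.168) or any treated mouse (0.0692 to 0.0732), and that of Cyp3a25 without control mouse 2 (0.0696) or 3 (0.0716) or any treated mouse (0.108 to 0.170). Cyp3a25 was also not called by DESeq2 (adjusted p = 0.0521) or with offsets for GC content and length, which left a log2 fold change of 0.05 (adjusted p = 0.507). The part of these values in the carboxylesterase levels was not tested.

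Markers of the other liver cells were low beside these. Endothelial markers summed to 61.0 to 62.8 CPM in controls and 69.5 to 74.2 CPM in treated mice, with Gpr182, Clec4g and Lyve1 of 6 higher, the last not without control mouse 1 or 2 or any treated mouse (adjusted p 0.0598 to 0.174) and not by DESeq2 (0.0574). Stab2, the most abundant of the 6, was at 23.95 ± 0.428 and 20.03 ± 0.604 CPM (log2 fold change -0.26, adjusted p = 0.0544), and limma voom called 1 of the 6 lower. Stellate markers summed to 90.6 to 98.4 CPM and 114 to 117 CPM, with Dcn, Reln and Colec11 of 6 higher. Dcn was the largest part of both sums (49.1 ± 2.27 and 62.9 ± 1.23 CPM). Lrat (log2 fold change -0.27, adjusted p = 0.245), Des (-0.20, adjusted p = 0.742) and Rgs5 (0.03, adjusted p = 0.903) were not called. The Reln call was lost without treated mouse 1 (0.109) or 2 (0.0607), and that of Colec11 without control mouse 2 (0.108) or 3 (0.0716) or treated mouse 1 (0.178) or 3 (0.186) and with offsets for GC content and length (0.124).

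Cholangiocyte markers summed to 68.5 to 69.9 CPM in the controls and 37.8 to 38.9 CPM in the treated mice, with Spp1 of 5 lower (log2 fold change -0.90). Spp1 alone made up most of both sums (61.9 ± 1.54 and 33.1 ± 0.357 CPM), whereas Krt19, Krt7 and Epcam were each under 1 CPM and not called (adjusted p 0.691 to 0.822). Sox9 was at 4.43 ± 0.752 and 3.02 ± 0.34 CPM (log2 fold change -0.54, adjusted p = 0.0555), and limma voom called 2 of the 5 lower. Of 6 Kupffer cell markers (143 to 166 CPM and 154 to 162 CPM), none was called by edgeR, DESeq2 or limma voom, and 1 had an unadjusted p under 0.05. Lymphocyte and neutrophil markers summed to at most 3.13 CPM. Of 6, 2 were tested and S100a9 was lower, a call lost without control mouse 2 or 3 or any treated mouse (adjusted p 0.0509 to 0.0841). The part of these cells in the carboxylesterase values was not tested.

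Carboxylesterases are also made in intestine, kidney and fat, and markers of those tissues were read for carry-over. Adipocyte markers summed to 1.82 to 3.50 CPM in controls and 2.67 to 4.02 CPM in treated mice, with Adipoq, Plin1 and Lep at 0 in every mouse. Kidney markers summed to at most 0.0718 CPM, with Slc12a1 and Aqp2 at 0. Intestinal markers summed to 33.0 to 41.0 CPM and 47.1 to 49.2 CPM, mostly Fabp2, which was called higher (28.6 ± 3.51 and 39.3 ± 0.487 CPM), with Alpi and Cdh17 at 0. Lgals4, the other tested intestinal marker, was at 8.63 ± 0.765 and 8.70 ± 0.593 CPM and was not called (adjusted p = 0.957). Pancreatic markers summed to 15.1 to 22.4 CPM and 28.2 to 30.8 CPM, nearly all from Cela1, also called higher, with Cpa1 at 0.

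The genes whose level over the 6 mice was most like the summed carboxylesterase level were Ndufaf4 (Pearson's r 0.999), Rdh16 (0.998), Adh1 (0.998), Ephx1 (0.998) and Hsd17b6 (0.998). The groups differ, so such values are shared by many genes, and 48 genes reached at least 0.99. After the group means were taken away, the 3 genes most alike were Ndufaf4 (0.9998), 8430422M14Rik (0.998) and Anxa3 (0.997). Among the 10 carboxylesterase genes themselves, the deviations of mice from their group means had a median r of -0.003 over 45 pairs, from -0.87 for Ces2a with Ces3b to 0.99 for Ces1d with Ces1f. All these values rest on the same 6 libraries and are given as a description.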

How the data were processed

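Liver RNA of 6 mice was sequenced from stranded mRNA libraries with paired-end reads of 150 bases. Reads were mapped by the authors to GRCm38 (mm10) with HISAT2. The deposited values are raw, unnormalized counts for each gene, beside a gene-model length. The counting tool, the annotation release and the strand setting are not given in the sources used here. Symbols, transcripts and the coordinates of coding ends were taken from GENCODE M21, and 346 identifiers had no symbol. Gene and cluster coordinates came from the deposited count table, and promoter coordinates from RefSeq. Groups were taken from the treatment labels. A count of 3 was used as the floor, 9.07e-06% to 1.12e-05% of a library, and floors cover counting error only. The intervals of the fold changes come from the quasi-likelihood fit and also include variation between mice. Libraries of a group differed by more than sampling noise (chi-square per gene 4.74 to 31.3).

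These counts were tested with edgeR 4.0.16 under R 4.3.3 (TMM scaling, the filterByExpr filter, a robust quasi-likelihood F-test, treatment as the only term), with Benjamini-Hochberg adjustment over all genes tested and an adjusted p under 0.05 as the threshold. Correlations used log2 CPM with a prior count of 2. Lists were described by counts and medians. Ratios and single genes were compared by the exact two-sided permutation test. Sequences were aligned with Biopython 1.88 under Python 3.11.15 (numpy 2.4.6, pandas 2.3.3, scipy 1.17.1), and plots were drawn with matplotlib 3.10.9.

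The genes, the lists and the alternatives were chosen with earlier results of these data known. Named were the 10 genes and Rnf10, tested genes of the same family, at most 4 called genes of each list with the largest change, and the 5 genes most alike in level by each measure, of which some are not reported here. Gusb, Dbp, Mgll, Per2, Per3, Arg1, Cyp1a2, Cyp3a25, Stab2, Krt19, Krt7, Epcam and Sox9 were named after their values were seen. So were Apoa1, Asgr1, Hnf4a, Lrat, Des and Rgs5. The zonation genes Hal, Cyp2f2, Hsd17b13, Glul, Lgr5 and Rhbg, the clock genes Arntl, Clock, Cry2 and Nr1d2, and Lgals4 were named likewise. Alternatives were RLE, upper-quartile and total-count scaling, TMM without the Ces genes, no filter, a minimum of 10 counts per mouse, DESeq2 1.42.0, voom with sample weights (limma 3.58.1), a replicate block, offsets for GC content and length (splines with 5 degrees of freedom, GC content known for 14034 tested genes), the same with the block, the longest transcript as length, and leaving out each mouse. Same-numbered mice are different animals, and their deviations correlated at -0.01, 0.052 and -0.054.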

Additional observations from a re-analysis of the deposited data

How the results depend on the processing

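Of 110 fits of the 10 genes with all mice (11 settings), 102 gave the same direction and call as reported, as did 52 of 60 fits without a mouse. Offsets for GC content and length, alone and with the replicate block, turned Ces1e to -0.0063 and -0.0031, took the call from Ces1c (0.11 and 0.11) and made Ces3b lower at -0.17 and -0.17, so that 1 of the 10 genes was then called lower. Scaling to library totals alone took the calls from Ces1c (0.14) and Ces3a (0.15), lowered the log2 ratio of the summed level from 0.22 to 0.17, moved the median of all genes by -0.05, and changed the calls over all genes from 943 higher and 1022 lower to 747 and 1381. Without a mouse, the genes called numbered 1053 to 2864 (520 to 1395 higher, 533 to 1469 lower), with the 3 smallest counts for the 3 treated mice (1053, 1128 and 1128), and 5 to 8 of the 10 genes were called, all of them higher. The 5 stood without treated mouse 1 or 2. The log2 fold change without a mouse was 0.17 to 0.21 for Ces1c, 0.19 to 0.23 for Ces1f and 0.16 to 0.23 for Ces3a. Without control mouse 1, 2 or 3, the genes called numbered 2864, 1633 and 1900, against 1965 with all mice. In each of these fits 8 of the 10 carboxylesterase genes were called. Leaving out a control mouse or a treated mouse takes away the same degrees of freedom. The cause of the difference between these fits was not tested. The numbers of the mice do not pair the animals, and with the replicate block 1816 genes and 8 of the 10 carboxylesterase genes were called. With the longest transcript as length, the control level per kb was 1234 for Ces1c, 1162 for Ces3a, 341 for Ces3b and 104 for Ces2a. A further 67 genes were followed through the fits. They were the called genes of the lists, the other tested family genes and the genes most alike in level. Of these 67, 18 lost a call in at least 1 of their fits and none turned sign. Depth left Ces2b, Ces2h and the untested genes of the family uncertain.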
